A study of Mus musculus with 2 samples.

Results

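The 38 genes described here act in G2 phase and mitosis, the last stages of cell division. They were listed by symbol for that role, and all 38 were found among the 27031 genes of the count table. The cells were live CD45+ leukocytes sorted from MC38 colon carcinomas grown under the skin of female C57BL/6 mice, which were 6 to 8 weeks old. Control mice received vehicle and treated mice 5 mg/kg telmisartan, a blocker of the angiotensin II type 1 receptor, by daily gavage from implantation to harvest on day 13. Cells of 5 mice made 1 pool per group, marked by Sample Tag 1 (control) or 2 (telmisartan), and both pools shared 1 capture. With 1 pool per group there was no replicate and no test, so differences between groups are differences between those pools.

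Before a cell divides it copies its DNA in S phase, and in mitosis a spindle of microtubules pulls the copies apart. Most genes of this kind are held silent in resting cells and are transcribed together from late S phase to mitosis, so their transcripts side by side in a cell mark a cell in division. Tumor macrophages come from blood monocytes and also from division in the tissue, and T cells divide after they meet antigen, whereas neutrophils leave the bone marrow after their last division.

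After filtering, 4535 control and 4434 telmisartan cells remained, with a median of 8689 and 6357.5 UMIs per cell, where a UMI stands for 1 captured RNA molecule. Clusters were named from marker genes as macrophage-like (8048 cells), dendritic-like (664), T-like (185) and neutrophil-like (72). Levels are UMIs summed over cells per 1000000 UMIs of those cells (CPM). Their 95% intervals are exact Poisson intervals, those of shares Clopper-Pearson intervals, and those of log2 ratios (telmisartan over control) conditional binomial intervals. Intervals of levels and ratios cover counting error only, not which cells were sampled. Intervals of shares rest on the number of cells. None of them covers which mice were sampled.

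The 38 genes together were highest in T-like cells, with 3340 CPM (95% interval 3221 to 3463). Of the 185 T-like cells, 21 formed a state led by macrophage genes, with 17176 CPM of macrophage markers, 3889 CPM of T cell markers and a median of 10390 UMIs; without it, a step chosen after seeing the data, the T-like level was 3743 CPM (3598 to 3893). Dendritic-like cells had 1853 CPM (1815 to 1891) and macrophage-like cells 1747 CPM (1737 to 1757). Neutrophil-like cells had the lowest level, 591 CPM (472 to 731), from 85 UMIs of 16 of the 38 genes. *Hmgb2*, a chromatin protein that resting cells also make, and *Cks2*, a small subunit of cyclin-dependent kinases, gave 32 and 29 of those 85 UMIs. *Mki67*, the Ki-67 protein that coats mitotic chromosomes and serves as the standard marker of dividing cells, had a UMI in 19.1% of macrophage-like, 18.8% of dendritic-like and 25.4% of T-like cells. In neutrophil-like cells it had a UMI in 1 of 72 cells (1.39%). The median depths of these 4 classes were 7561, 6959.5, 3286 and 1769 UMIs per cell.

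Gene by gene, 33 of the 38 had a higher CPM in T-like than in macrophage-like cells, with a median ratio of 1.66. The ratio ran from 0.635 for *Ckap2l*, a protein of the spindle poles, to 2.84 for *Cenpa*, the histone H3 variant that marks centromeres. Between dendritic-like and macrophage-like cells, 18 of 38 genes were higher in dendritic-like cells, with a median ratio of 0.975. Neither count was set against the share of all genes that were higher in the same comparison. *Cenpa* again had the highest ratio, 1.80, and *Anln*, an actin-binding protein of the cleavage furrow, the lowest, 0.576.

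Among macrophage-like cells the counts ranged from 399 UMIs for *Ttk*, the spindle checkpoint kinase MPS1, to 19327 for *Hmgb2*, which alone gave 16.6% of the UMIs of the 38 genes. *Smc4*, the core subunit of condensin, had 10745 UMIs, *Top2a*, the enzyme that untangles sister DNA molecules, 9969, and *Mki67* 9779. The median gene had 1749.5 UMIs, so every gene could be followed in this class, whereas in T-like cells the median was 40 UMIs.

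Few macrophage-like cells carried most of these transcripts. The 10% of cells with the most UMIs of the 38 genes held 76.6% of all such UMIs in the control group and 78.0% in the telmisartan group. The median cell had 4 and 3 of these UMIs, and the highest cell 429 and 384. To compare cells at equal depth, each cell was thinned at random to 2000 UMIs, which left out 272 control and 432 telmisartan cells with fewer.

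After thinning, 439 of 3777 control cells (11.6%, 10.6 to 12.7%) and 392 of 3567 telmisartan cells (10.99%, 9.98 to 12.1%) had a UMI of at least 4 of the 38 genes. Such cells are called member-rich below, and cells with none are called member-free. Member-free cells made up 40.0% of control and 39.1% of telmisartan cells. At full depth the shares with at least 4 genes were 33.7% and 25.8%, in groups whose macrophage-like cells differed in depth. The number of genes per cell forms a range: 135 control and 135 telmisartan cells had 3 genes and lay just under the limit, 50 and 52 had exactly 4, and 201 and 188 had at least 11. None of the 28 neutrophil-like cells deep enough for thinning was member-rich (0%, up to 12.3%).

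**Figure D1:**
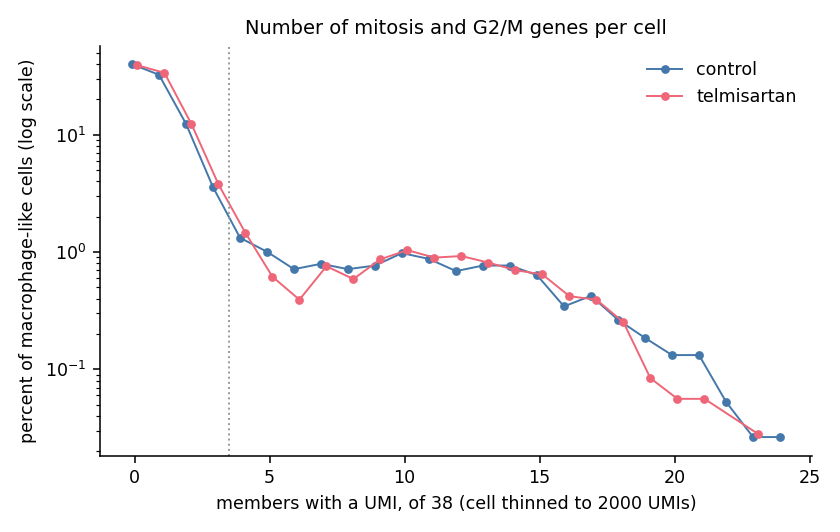
Percent of macrophage-like cells (log scale) by the number of the 38 mitosis and G2/M genes with a UMI after thinning each cell to 2000 UMIs, for control and telmisartan cells, with a dotted line below 4 genes. The share falls to 3.57% (control) and 3.78% (telmisartan) of cells at 3 genes and stands at 0.980% and 1.04% at 10 genes.

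The genes appeared together in the same cells. Cells were chosen by the first 19 genes of the list alone, as those with a UMI of at least 3 of them after thinning, and the level of the other 19 genes was then read in those cells. In 729 such cells the other 19 genes reached 3716 CPM, against 318 CPM in 5216 cells with none of the first 19, which is 11.7 times as high. When the last 19 genes chose the cells, the first 19 stood at 5066 CPM in 711 cells and 142 CPM in 3613 cells, 35.6 times as high. In both directions 19 of 19 genes were higher in the chosen cells, a count that was not set against the share of all genes. The lowest ratios of single genes were 5.60 and 8.84. Within the control group the 2 ratios were 11.97 and 37.6, and within the telmisartan group 11.3 and 33.3.

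Genes outside all cell-cycle lists showed which others share this pattern. Among those with at least 200 UMIs, *Prr11* had the highest ratio of member-rich to member-free macrophage-like cells, 103 against 0.986 CPM. Next came *Neil3*, a DNA repair glycosylase (50.1 against 0.493 CPM), and *Ska1*, which couples kinetochores to microtubules (28.1 against 0.287 CPM). *Pclaf*, a partner of the replication clamp PCNA, was the most abundant of the leading 15, with 591 against 9.36 CPM. The others were *Depdc1a*, *Esco2* (which locks cohesin onto copied DNA), *Mns1*, *Oip5* (which helps load *Cenpa*), the motor *Kifc1*, *Ska3*, *Fbxo5* (an inhibitor of the anaphase-promoting complex), *Shcbp1*, the kinetochore scaffold *Knl1*, *Mxd3* and *Cdkn3*, the last at 63.6 against 2.18 CPM.

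Member-rich macrophage-like cells were deeper than member-free ones, with a median of 13444 against 8711 UMIs in the control group and 11347 against 6808 in the telmisartan group. Markers of other cells were looked up as whole lists. The 13 T cell markers summed to 30.1 CPM in member-rich control cells and 22.4 CPM in member-rich telmisartan cells, against 19.4 and 21.9 CPM in member-free cells and 7629 CPM in T-like cells. *Thy1* and *Cd2* led them. The 13 dendritic cell markers summed to 111 and 83.7 CPM, mostly *Wdfy4*, against 3682 CPM in dendritic-like cells. Of 8 epithelial markers found in the table, *Cdh1* gave 342 of 360 UMIs in member-rich control cells and 261 of 270 in telmisartan cells, with *Krt8*, *Krt18*, *Krt19* and *Cldn7* at 0 in both. The 13 macrophage markers reached 16895 and 17510 CPM in member-rich cells, led by *Lyz2*, against 19834 and 20169 CPM in member-free cells. Summed over member-rich control and telmisartan cells, neutrophil markers gave 44.9 and 76.1 CPM (14604 in neutrophil-like cells), fibroblast markers 10.3 and 13.3, endothelial markers 17.2 and 17.2, B cell markers 15.7 and 9.68, NK cell markers 1.49 and 2.80, erythroid markers 1.49 and 0.645, and mast cell markers 0 and 0 CPM.

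Between the groups, macrophage-like cells had nearly the same level of the 38 genes: 1729 CPM (1716 to 1742) in the control group and 1772 CPM (1756 to 1787) in the telmisartan group. The log2 ratio was 0.04 (0.02 to 0.05), and its sign turned with the processing, to -0.11 when cells with over 5000 genes were kept, to -0.05 as a mean over cells, to -0.08 after thinning and to -0.37 as UMIs per cell, a scale that puts the median of all genes at -0.45. Without *Hmgb2*, the most counted gene, it was 0.07, and without *Ckap2l*, left out after its value was seen, 0.01. None of the 38 genes was lower by at least 0.25 on the log2 scale, where 19.2% of 11073 genes with at least 100 UMIs were. With cells of over 5000 genes kept, 6 of the 38 were lower by that much, where 20.7% of all genes were. As a mean over cells 5 were (23.3% of all genes), after thinning 5 (24.5%) and as UMIs per cell 36 (77.0%). In the main processing *Ckap2l* alone was higher by at least 0.25, where 16.4% of the 11073 were. The median log2 ratio was 0.03 over the 38 genes and -0.05 over the 11073. In all, 24 of the 38 lay above 0 and 14 below, where 57.1% of the 11073 lay below, and for 26 the interval held 0, where it did for 5150 of the 11073. The number below 0 turned with the processing: 34 lay below 0 with cells of over 5000 genes kept, 27 as a mean over cells and 24 after thinning. As UMIs per cell, where the median of all genes was itself at -0.45, 37 did. The class also differed in make-up between the groups, since its states held different numbers of control and telmisartan cells.

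**Figure D2:**
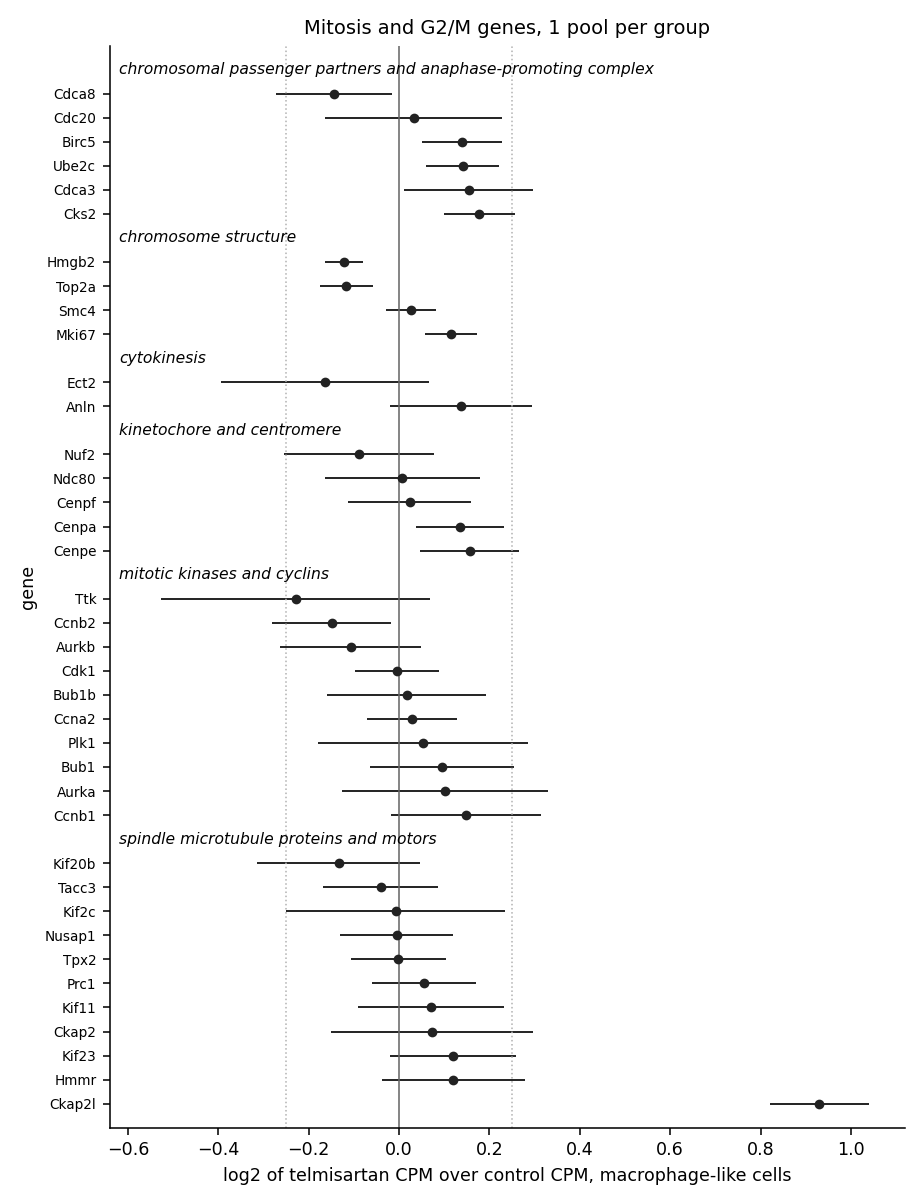
Log2 ratio of telmisartan over control CPM in macrophage-like cells for each of the 38 genes, grouped by role, with 95% intervals for counting error (1 pool per group); dotted lines stand at -0.25 and 0.25. *Ckap2l*, at 0.93, stands apart from the other 37, which lie between -0.23 (*Ttk*) and 0.18 (*Cks2*).

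By role, the sums differed in direction: chromosome structure had 758 and 737 CPM (-0.04, -0.07 to -0.02), the spindle genes, *Ckap2l* included, 275 and 306 CPM (0.16, 0.12 to 0.20; 244 and 248 CPM without it, 0.02, -0.02 to 0.07), kinetochore and centromere 152 and 160 CPM (0.08, 0.02 to 0.14) and cytokinesis 29.8 and 30.6 CPM (0.04, -0.09 to 0.17). The 4 genes of chromosome structure also differed among themselves. *Top2a* had 155 CPM in the control group and 143 CPM in the telmisartan group (log2 ratio -0.12, -0.17 to -0.06). *Hmgb2* had 301 and 277 CPM (-0.12, -0.16 to -0.08). *Mki67* went the other way, with 142 and 154 CPM (0.11, 0.06 to 0.17), and *Smc4*, at 160 and 163 CPM, had an interval that held 0. Read per cell at an equal depth of 2000 UMIs, *Top2a* had a UMI in 10.3% of control and 9.62% of telmisartan cells, and *Mki67* in 10.9% and 11.3%.

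The group with most intervals above 0 joins partners of the chromosomal passenger complex, which carries a kinase to centromeres, with genes of the anaphase-promoting complex, which marks proteins for destruction so that sister chromatids can part, and *Cks2*. Together they had 277 and 300 CPM (0.12, 0.07 to 0.16), with 4 of 6 intervals above 0 and 1 below, where 22.1% and 31.4% of the 11073 genes had such intervals. These directions, and those of the single genes named by role, are those of the main processing only. With no upper limit on genes, 34 of the 38 genes lay below 0 and 4 above, and the sign turned for 20. The sign turned for 13 as a mean over cells and for 12 after thinning. *Birc5*, survivin, had 59.2 and 65.2 CPM (0.14). *Ube2c*, the ubiquitin-conjugating enzyme of the anaphase-promoting complex, had 73.5 and 81.0 CPM (0.14). *Cks2* had 75.3 and 85.1 CPM (0.18) and *Cdca3*, which promotes entry into mitosis, 23.4 and 26.0 CPM (0.15). *Cdca8*, borealin, lay below 0, with 32.3 and 29.2 CPM (-0.14, -0.27 to -0.02). *Cdc20*, the activator of the complex, had 13.03 and 13.3 CPM (0.03).

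The 10 mitotic kinases and cyclins summed to 238 CPM in both groups (log2 ratio 0.00, -0.05 to 0.04). *Cdk1*, the kinase that drives entry into mitosis, had 57.0 and 56.8 CPM, and its partner *Ccna2* 50.2 and 51.2 CPM. *Ccnb2*, a B-type cyclin, had an interval wholly below 0, with 30.8 and 27.8 CPM (-0.15, -0.28 to -0.02). For *Ccnb1*, the aurora kinases *Aurka* and *Aurkb*, the checkpoint kinases *Bub1*, *Bub1b* and *Ttk*, and *Plk1*, the intervals held 0.

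Of the 5 kinetochore and centromere genes, *Cenpe*, the kinesin that moves chromosomes to the spindle equator, had 39.1 and 43.6 CPM (0.16, 0.05 to 0.27). *Cenpa* had 49.4 and 54.2 CPM (0.13, 0.04 to 0.23). The intervals of *Cenpf*, *Ndc80* and *Nuf2*, the last 2 being subunits of the complex that grips microtubules, held 0. So did those of both cytokinesis genes, *Anln* and *Ect2*, the exchange factor that starts the cleavage furrow. Of the 11 spindle genes, 10 had intervals that held 0: the motors *Kif11*, *Kif20b*, *Kif23* and *Kif2c*, the microtubule-binding proteins *Prc1*, *Tpx2*, *Nusap1*, *Hmmr* and *Tacc3*, and *Ckap2*.

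*Ckap2l* was the exception, with 30.6 CPM in the control group and 58.4 CPM in the telmisartan group (0.93, 0.82 to 1.04; 1168 and 1655 UMIs). It lies on the minus strand of chromosome 2 at chr2:129268210-129297212 (GRCm38), 2398 bases past the end of *Il1a*, which codes for interleukin 1 alpha and lies on the same strand at chr2:129299610-129309972. In macrophage-like cells with no *Il1a* UMI the log2 ratio of *Ckap2l* was 0.27 (0.09 to 0.46), and in those with an *Il1a* UMI it was 1.32 (1.18 to 1.46). *Il1a* itself was lower in the telmisartan group, at -0.35. Cells were then sorted by the other 37 genes alone, a step chosen after seeing the data. The *Ckap2l* ratio was 2.16 (1.78 to 2.55; 75 and 253 UMIs) in cells with none of the 37, 1.72 (1.46 to 1.99; 175 and 408 UMIs) in cells with 1 to 3 and 0.45 (0.31 to 0.58; 915 and 957 UMIs) in cells with at least 4. Without and with an *Il1a* UMI it was 1.93 (0.98 to 2.96) and 2.22 (1.80 to 2.65) in cells with none of the 37. In cells with 1 to 3 it was 0.64 (0.03 to 1.26) and 2.06 (1.77 to 2.36), and in cells with at least 4 it was 0.35 (0.15 to 0.55) and 0.49 (0.31 to 0.67). Since intronic reads were counted, transcripts that run past *Il1a* could be counted for *Ckap2l*; their part in the result was not tested. Of the other genes, *Cdc20* overlaps *Elovl1* on the opposite strand, which had 4.12 times as many UMIs, and *Ccna2*, *Prc1*, *Nusap1*, *Tacc3* and *Cdca8* overlap an opposite gene with over 0.1 times their own UMIs (for *Cdca8* that gene's log2 ratio was -0.67), so their counts are less certain if strand was not used in counting.

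Within member-rich cells alone, 17 of the 38 genes lay above 0 and 21 below, with a median log2 ratio of -0.03. Intervals lay above 0 for 4 genes, below for 3 and held 0 for 31, that is 10.5%, 7.89% and 81.6% of the 38. Of 4630 genes with at least 350 UMIs in these cells, as the 38 all had, intervals lay above 0 for 15.5%, below for 21.9% and held 0 for 62.6%, and 58.4% of the ratios lay below 0. *Top2a* had 866 and 777 CPM there (-0.16, -0.22 to -0.10) and *Hmgb2* 1106 and 1007 CPM (-0.14, -0.19 to -0.08). *Birc5* had 334 and 369 CPM (0.14, 0.05 to 0.24). These cells are chosen by the same genes and hold most of their UMIs (89.0% for *Top2a* and 91.0% for *Birc5*), so the values are not independent of those over the class. For *Mki67*, 778 and 801 CPM, the interval held 0 (0.04, -0.02 to 0.10), as it did, among others, for *Ube2c* (0.06), *Cenpa* (0.03) and *Ccnb2* (-0.08), whose intervals over the class did not. *Cdca8*, with an interval below 0 over the class, was not among the 3 genes with one below 0 here. *Kif20b* had an interval below 0 here (-0.23, -0.43 to -0.03) and not over the class.

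Other lists cover the rest of the cell cycle. The 44 other mitotic genes summed to 865 and 915 CPM (0.08, 0.06 to 0.11; -0.33 as UMIs per cell and -0.04 with cells of over 5000 genes kept), with 24 higher and 20 lower. Among them *Lmnb1*, a lamin of the nuclear envelope, had 137 and 166 CPM (0.28). As UMIs per cell, a scale that puts the median of all genes at -0.45, *Lmnb1* was at -0.13. *Bub3*, a checkpoint protein, had 63.6 and 63.8 CPM (0.00), and *Smc2*, the partner of *Smc4* in condensin, 58.3 and 54.8 CPM (-0.09). The extremes among genes with at least 200 UMIs were *Trip13*, which disassembles checkpoint complexes, at -0.51 and *Troap*, a spindle protein, at 0.48.

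The 35 DNA replication genes went lower, with 1066 and 935 CPM (-0.19, -0.21 to -0.17), 31 of 35 below 0 and 12 lower by at least 0.25, where 57.1% and 19.2% of the 11073 genes were. The lower direction was kept under each scaling tried. *Pcna*, the clamp that holds DNA polymerase, had 176 and 168 CPM (-0.07), *Lig1*, the ligase that joins new fragments, 68.2 and 59.8 CPM (-0.19), and *Mcm6*, a subunit of the replicative helicase, 66.8 and 50.6 CPM (-0.40). *Cdc6*, which loads that helicase, was lowest at -0.52. *Orc1*, of the origin recognition complex, was highest at 0.28, and its interval held 0 (-0.13 as UMIs per cell, where the median of all genes was -0.45). Among 29 regulators of G1 phase, 27 had at least 100 UMIs, of which 17 were lower and 10 higher, while the list summed to 2595 and 2803 CPM (0.11, 0.10 to 0.12). The regulator with most UMIs, *Cdkn1a*, the p21 inhibitor of cyclin-dependent kinases, had 594 and 911 CPM (0.62, 0.59 to 0.64). Without it, a step chosen after seeing the data, the list summed to 2002 and 1892 CPM (-0.08, -0.10 to -0.06). *Btg2*, an anti-proliferative gene, had 475 and 330 CPM (-0.53) and *Ccnd1*, cyclin D1, 222 and 193 CPM (-0.21). *Lin54*, the subunit by which the complex that controls mitotic genes binds DNA, was highest, with 61.0 and 109 CPM (0.84, 0.76 to 0.92).

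Cells with replication transcripts and cells with mitotic ones overlapped only in part. After thinning, at least 4 replication genes and at least 4 of the 38 genes were found together in 6.25% (5.50 to 7.07%) of control and 5.66% (4.93 to 6.47%) of telmisartan macrophage-like cells. The 38 genes without 4 replication genes were found in 5.37% and 5.33%. Replication genes without the 38 were found in 5.37% (4.68 to 6.14%) and 3.64% (3.05 to 4.31%). All cells with at least 4 replication genes made up 11.6% (10.6 to 12.7%) and 9.31% (8.37 to 10.3%). The intervals of the groups overlapped for both sets with at least 4 of the 38 genes and did not for the other 2 sets. Since these intervals rest on the number of cells and not on mice, their overlap cannot decide whether telmisartan changed the shares.

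Macrophage states were first rebuilt without 394 listed cell-cycle genes. Dividing cells still came together as 1 of 6 states, with 716 cells at 8385 CPM (8328 to 8442), and the other 5 states lay between 479 and 653 CPM. With the cell-cycle genes kept, 710 cells at 9140 CPM formed a mitotic state and 258 cells led by replication genes such as *Ung*, *Cdc6* and *Mcm5* had 1223 CPM. In these 6 states, numbered apart from those rebuilt later, the groups had 429 and 522 CPM in state 1, led by *Dcstamp*, *Areg* and *Fpr1* (0.28, 0.22 to 0.34). They had 550 and 669 CPM in state 2, led by *Serpina3g* and *Cxcl9* (0.28, 0.21 to 0.36), and 665 and 639 CPM in state 3, led by *Gas6* (-0.06, -0.12 to 0.00). State 4, led by *Ifit* genes, had 693 and 545 CPM (-0.35, -0.47 to -0.23). After thinning, 7 of its 241 control and 7 of its 550 telmisartan cells were member-rich. State 5, led by *Serpinb2*, had 537 and 730 CPM (0.44, 0.32 to 0.57), with 4 of 248 and 10 of 373 cells member-rich. The dividing state had 8168 and 8694 CPM (0.09, 0.07 to 0.11). With the cell-cycle genes kept, the mitotic state had 9203 and 9059 CPM (-0.02, -0.04 to 0.00), opposite in sign. The state led by *Ifit* genes then had 520 and 496 CPM, with an interval that held 0 (-0.07, -0.21 to 0.07), and that led by *Dcstamp* had 399 and 429 CPM (0.10, 0.03 to 0.17). Those led by *Serpina3g* and by *Serpinb2* had ratios of 0.24 (0.15 to 0.33) and 0.52 (0.41 to 0.63), and that led by *Gas6* -0.07 (-0.14 to -0.01). Member-rich cells numbered 2 in the control and 9 in the telmisartan group in the state led by *Serpinb2*. The state led by replication genes had 1266 and 1127 CPM (-0.17, -0.26 to -0.07). To see which states the dividing cells join once cell-cycle genes no longer set them apart, the states were rebuilt once more, in a way chosen after seeing the data: all genes at least 1.5 times as high in member-rich as in member-free cells were left out (1335 genes with the listed ones), and S and G2/M scores were regressed out. Of the 716 dividing cells, 37.0% then joined state 1 (led by *Fpr1*, *Slpi* and *Cxcl3*), 27.9% state 2 (*Klrb1b*, *Serpina3g* and *Cxcl9*) and 31.4% state 3 (*Gas6*, *Cbr2* and *Fcrls*).

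State 3 had the highest level, 2051 CPM (2029 to 2073), and 16.3% member-rich cells. States 1 and 2 followed with 1813 and 1808 CPM. State 4, led by the monocyte genes *Ly6c2* and *Plac8*, had 850 CPM, state 5, led by *Serpinb2* and *Hmox1*, 713 CPM, and state 6, led by interferon-induced *Ifit* genes, 917 CPM. The median cell of states 4 and 5 had 2210 and 3466.5 UMIs, against 8723.5 to 9469 in states 1 to 3. After thinning, 3.91% and 3.02% of their cells were member-rich. State 7, led by *Pde4c* and *Hkdc1*, had 8 control cells and 65 telmisartan cells, with 1555 CPM in all.

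Control and telmisartan cells numbered 1058 and 1260 in state 1, 1414 and 568 in state 2, 854 and 783 in state 3, 292 and 625 in state 4, 332 and 576 in state 5 and 91 and 122 in state 6. The ratio between the groups differed among these states. In state 1 the level was 1518 CPM in the control group and 2115 CPM in the telmisartan group (0.48, 0.45 to 0.51), and member-rich cells made up 9.63% (7.91 to 11.6%) and 13.8% (11.9 to 15.8%). In state 3 it was 2139 and 1934 CPM (-0.15, -0.18 to -0.11), with 18.3% (15.7 to 21.0%) and 14.2% (11.8 to 16.8%) member-rich cells. State 2 had 1822 and 1768 CPM (-0.04), with an interval that held 0 without *Hmgb2* (-0.02) and a sign that turned as a mean over cells (0.08). In state 5 the level was 603 and 774 CPM (0.36, 0.25 to 0.48), with 2.12% (0.69 to 4.87%) and 3.51% (1.98 to 5.73%) member-rich cells. In states 4, 6 and 7 the intervals of the ratio held 0. As cells with over 5000 genes are rich in these transcripts, the states were also rebuilt with no upper limit on genes: the state closest to state 1 then had 0.11 (0.09 to 0.14), the one closest to state 2 had 0.05 (0.01 to 0.09) and the one closest to state 3 had -0.36 (-0.39 to -0.33). These drew 82.1%, 92.2% and 88.8% of their cells from states 1, 2 and 3, whereas no state drew more than 47.7% from state 4 or was closest to state 5. The state that drew 47.7% of its cells from state 4 had 0.33 (0.24 to 0.42).

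**Figure D3:**
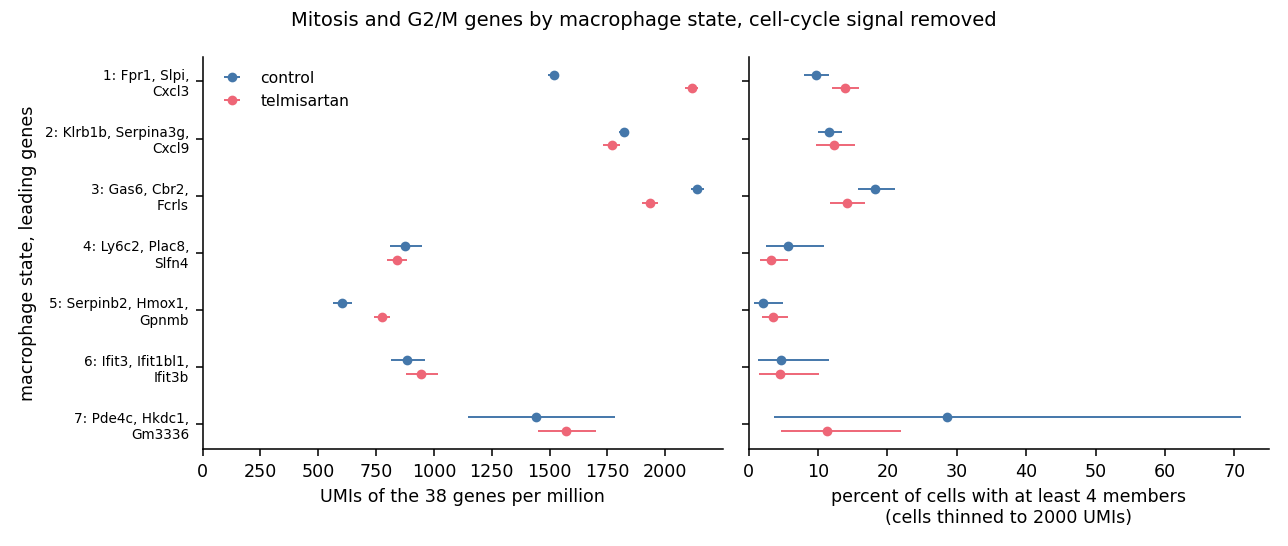
Level of the 38 genes in CPM (left) and percent of member-rich cells after thinning to 2000 UMIs (right) in the 7 macrophage states rebuilt with the cell-cycle signal removed, for control and telmisartan cells. The 95% intervals cover counting error (left) and rest on the number of cells (right). The telmisartan point lies above the control point in state 1 (2115 and 1518 CPM) and below it in state 3 (1934 and 2139 CPM).

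In dendritic-like cells the 38 genes stood at 1958 CPM (1908 to 2010) in the control group and 1704 CPM (1648 to 1761) in the telmisartan group (-0.20, -0.26 to -0.14). With cells of over 5000 genes kept the ratio was -0.03, with an interval that held 0. The alternatives tried ran from that value to -0.44, the latter after thinning. Member-rich cells made up 13.6% (10.2 to 17.6%) and 12.1% (8.50 to 16.4%). Of 24 genes with at least 100 UMIs in this class, 10 were lower by at least 0.25, where 20.1% of 5832 genes were, and 1 was higher, where 16.6% were. The median log2 ratio was -0.16 over these 24 and -0.02 over the 5832. Of the 24, 20 lay below 0, where 53.3% of the 5832 did, and for 21 the interval held 0, where it did for 4451 of the 5832. With the 14 genes of fewer UMIs added, 33 of 38 lay below 0 and for 32 the interval held 0. These counts over the 38 were not set against the share of all genes at the same limit. *Ube2c* had 79.8 and 33.9 CPM (-1.23, -1.64 to -0.84; 233 and 70 UMIs) and *Cdc20* 13.01 and 2.91 CPM (-2.16, -3.70 to -0.91; 38 and 6 UMIs). Both act at the end of mitosis in the anaphase-promoting complex, which *Cdc20* activates and *Ube2c* serves. *Ckap2*, *Ccnb2*, *Nuf2* and *Cenpa* also had intervals below 0. Of the 24 genes with at least 100 UMIs, 3 (12.5%) had such intervals, close to the 11.2% of the 5832 genes.

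By subset, 32 cells named cDC1-like, the dendritic cells that cross-present antigen, had 4596 CPM (4369 to 4831). The 530 cells named Cd209a-type-like had 1804 CPM (1763 to 1846), and 102 mature Ccr7-like cells 583 CPM (522 to 650), with 32 of the 38 genes found. Mature Ccr7-like cells, which have stopped taking up antigen and are on their way to lymph nodes, thus had about the level of neutrophil-like cells. Of the 32 cDC1-like cells, 16 from each group, 9 were member-rich after thinning (28.1%, 13.7 to 46.7%). Between the groups the log2 ratio was -0.39 (-0.54 to -0.25) in cDC1-like and -0.28 (-0.35 to -0.21) in Cd209a-type-like cells. In mature Ccr7-like cells it was 0.30, with an interval that held 0 (-0.03 to 0.62). In the first clustering, a cluster of 93 cells led by *Xcr1*, a cDC1 receptor, together with cell-cycle genes such as *Ccna2* and *Kif11* held 7144 of the 9240 UMIs of the 38 genes in the class. The cDC1-like subset held 1539 of the 9240 and the Cd209a-type-like subset 7371. Most of the 7144 UMIs thus came from cells outside the cDC1-like subset. The level of this cluster was 8385 CPM (8141 to 8634, 54 cells) in the control group and 6081 CPM (5853 to 6316, 39 cells) in the telmisartan group (-0.46, -0.53 to -0.39). The largest cluster of the class, 462 cells, had 516 and 501 CPM, with an interval that held 0. The remaining cluster, 109 cells led by *Fscn1*, had 556 and 628 CPM (0.17, -0.13 to 0.48).

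In T-like cells the level was 3290 CPM (3122 to 3464) in 72 control cells and 3389 CPM (3222 to 3563) in 113 telmisartan cells (0.04, -0.06 to 0.15), and 22.6% and 17.3% of 53 and 81 cells deep enough for thinning were member-rich. Without the state led by macrophage genes, which held 33.4% of the control and 16.6% of the telmisartan UMIs of the class, the log2 ratio was -0.07 (-0.19 to 0.04). The ratio was 0.46 when a cell needed 90% of its Sample Tag reads on 1 tag and -0.56 as UMIs per cell. Cells were also split by coreceptor, a split chosen after seeing the data. The 99 cells with a UMI of *Cd8a* or *Cd8b1* and none of *Cd4* had 3748 CPM (3442 to 4074) in the control group and 4493 CPM (4213 to 4785) in the telmisartan group (0.26, 0.11 to 0.42). The 60 cells with *Cd4* and no *Cd8a* or *Cd8b1* had 4037 CPM (3754 to 4337) and 2397 CPM (2173 to 2638), a log2 ratio of -0.75 (-0.93 to -0.58). The 36 cells with a UMI of *Foxp3*, the regulator of regulatory T cells, had 3023 and 2017 CPM (-0.58, -0.83 to -0.34). The 25 cells with none of these 3 transcripts had 1319 and 2388 CPM (0.86, 0.51 to 1.20). Without the state led by macrophage genes, the ratio in cells with a CD8 transcript was -0.07 (-0.24 to 0.10; 27 and 64 cells), so that the higher level there rested on that state. In cells with a CD4 transcript it was then -0.93 (-1.11 to -0.74; 21 and 32 cells), in those with *Foxp3* -0.96 (-1.30 to -0.63) and in those with no coreceptor transcript 1.28 (0.75 to 1.80). Whether the sets differ was not tested. Member-rich cells were too few to compare, with 5 and 9 in the first set and 5 and 3 in the second.

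The first clustering had divided the same cells into a pair of clusters. The CD8-like cluster of 142 cells had 3437 CPM (3230 to 3653) and 3930 CPM (3720 to 4148), a log2 ratio of 0.19 (0.07 to 0.31), and 0.06 (-0.06 to 0.18) without the state led by macrophage genes. The other cluster, 43 cells, was led by *Foxp3*, *Icos* and *Izumo1r*, genes of regulatory T cells, against all other cells. It had 2970 CPM (2689 to 3272) and 1856 CPM (1618 to 2119), a log2 ratio of -0.68 (-0.92 to -0.44). Without that state the ratio was -0.999 (-1.33 to -0.67), from 17 control and 17 telmisartan cells. Of single genes in T-like cells, *Top2a* had 149 and 111 UMIs (-0.47, -0.84 to -0.11) and *Mki67* 110 and 149 UMIs (0.39, 0.02 to 0.76), the same opposite directions as in macrophage-like cells; without that state they were -0.76 (-1.15 to -0.37) and 0.21 (-0.18 to 0.60). *Ckap2l* had 21 and 3 UMIs (-2.86, -5.24 to -1.11), opposite to macrophage-like cells. Of the 38 genes, 5 intervals lay above 0 (13.2%), 5 below and 28 held 0. Of 9094 genes with at least 7 UMIs in T-like cells, the fewest that any of the 38 had, 6.67% had intervals above 0 and 6.44% below. Without that state 2, 5 and 31 of the 38 had intervals above 0, below 0 and holding 0, against 5.64% above and 4.79% below of 9120 genes with at least 5 UMIs.

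The genes do not lie together in the genome: the 38 are spread over 14 chromosomes, with at most 7 on 1 of them (chromosome 2), and none lies within 5000 bases of another. Many share promoter letters instead. Mitotic promoters often hold a cell-cycle homology region, TTTGAA or TTTAAA, where a complex with the *Lin54* product binds, near CCAAT boxes, which NF-Y binds. RefSeq promoters on GRCm38.p6 were found for 34 of the 38 genes, all but *Ccna2*, *Tpx2*, *Aurkb* and *Smc4*, in 36 windows of 250 bases upstream of the start. TTTGAA or TTTAAA, on either strand, was present in 52.8% of the 36 windows, against 25.2% of 32851 windows of all genes. CCAAT, on either strand, was present in 77.8% against 33.8%, and both together in 47.2% (16 genes) against 8.78%. A match of letters shows neither binding nor use.

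The promoters of the 4 most counted genes with both motifs are printed to show how the letters stand to each other, 5′ to 3′ up to the base before the start, with both motifs in capitals (the reverse complement of TTTGAA reads TTCAAA, that of CCAAT reads ATTGG). They lie at chr8:57511593-57511842 (plus strand, *Hmgb2*), chr11:99024190-99024439 (minus strand, *Top2a*), chr7:135716380-135716629 (minus strand, *Mki67*) and chr2:164769679-164769928 (plus strand, *Ube2c*).
Hmgb2: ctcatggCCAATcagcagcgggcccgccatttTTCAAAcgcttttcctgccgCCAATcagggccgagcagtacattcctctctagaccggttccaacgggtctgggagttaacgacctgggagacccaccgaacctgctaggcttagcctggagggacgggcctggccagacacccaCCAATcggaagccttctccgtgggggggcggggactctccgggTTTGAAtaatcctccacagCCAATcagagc
Top2a: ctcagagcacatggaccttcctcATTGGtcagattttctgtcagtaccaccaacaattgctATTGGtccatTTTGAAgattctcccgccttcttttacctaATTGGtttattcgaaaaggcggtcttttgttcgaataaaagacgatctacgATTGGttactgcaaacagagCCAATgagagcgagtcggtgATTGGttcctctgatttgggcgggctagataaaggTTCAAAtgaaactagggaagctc
Mki67: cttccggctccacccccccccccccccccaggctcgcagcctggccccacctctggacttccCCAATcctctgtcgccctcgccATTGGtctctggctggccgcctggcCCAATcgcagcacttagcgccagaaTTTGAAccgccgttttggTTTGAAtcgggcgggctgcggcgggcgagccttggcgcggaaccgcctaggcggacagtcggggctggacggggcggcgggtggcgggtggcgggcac
Ube2c: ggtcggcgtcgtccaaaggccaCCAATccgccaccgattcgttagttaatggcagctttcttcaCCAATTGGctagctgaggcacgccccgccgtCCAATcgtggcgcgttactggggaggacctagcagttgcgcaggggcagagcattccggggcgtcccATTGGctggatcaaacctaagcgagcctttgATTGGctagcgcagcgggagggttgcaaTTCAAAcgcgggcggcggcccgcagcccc
In *Hmgb2* the match of the first motif nearest the start ends 24 bases before it, in *Top2a* 17, in *Ube2c* 23 and in *Mki67* 92 bases. The number of CCAAT matches was 4 in *Hmgb2*, 6 in *Top2a*, 3 in *Mki67* and 6 in *Ube2c*.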

How the data were processed

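Per the submitters' processing notes, the authors made the deposited UMI counts with the BD Rhapsody WTA Analysis Pipeline 1.11 on GRCm38 with GENCODE M19, intronic reads included. A cell with 10 or more Sample Tag reads took the group of the tag that held 75% or more of them. Cells with 150 to 5000 genes and at most 20% mitochondrial UMIs were kept (9911 of 20726 putative cells). The automatic threshold of Scrublet marked 0 doublets, so the 942 cells with the highest scores, the predicted same-tag share of 9.51%, were removed. Clusters were made with Seurat 5.3.0 in R 4.3.3, and sums and intervals with Python 3.11.15, numpy 2.4.6, scipy 1.17.1, pandas 2.3.3 and scanpy 1.11.5. edgeR 4.0.16 gave TMM factors for 1 alternative, and matplotlib 3.10.9 drew the figures. Genes named are the 38, from each other cell-cycle list the 3 with most UMIs and the highest and lowest log2 ratio among those with at least 200 UMIs, and the 15 genes outside the lists with the highest ratio of member-rich to member-free cells. Members and lists were chosen with earlier results of these data known. Gene positions come from GENCODE M21 on GRCm38.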

Additional observations from a re-analysis of the deposited data

Results flagged for a closer look

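The ratio of the 38 genes between the groups lay below 0 in several sets of cells while it lay above 0 over all macrophage-like cells. It was -0.20 in dendritic-like cells, -0.46 in the dendritic cluster led by *Xcr1* and cell-cycle genes, and -0.68 in the T-like cluster led by *Foxp3* and *Icos*. In macrophage states rebuilt with the cell-cycle signal removed it was -0.044 in state 2, where the sign turned as a mean over cells (0.084) and with no upper limit on genes (0.048), and -0.15 in state 3. With no upper limit on genes the ratio over all macrophage-like cells lay below 0 as well. Over the alternatives tried it ran from -0.37 to 0.10 there, and from -0.44 to -0.025 in dendritic-like cells. The difference between the sets named and all macrophage-like cells was not tested.

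Cells left out by the filters also carried these transcripts. Cells with over 5000 genes had 7365 CPM in the control group (74 cells) and 7358 CPM in the telmisartan group (16 cells), and 60 and 12 of them were member-rich. The 399 telmisartan cells removed by doublet score had 1830 CPM (1788 to 1872), against 1789 CPM in kept telmisartan cells, and the 543 control cells so removed 1433 CPM (1404 to 1463), below the 1759 CPM of kept control cells. Of these removed cells 15.8% (12.8 to 19.1%) in the control group and 20.4% (16.5 to 24.7%) in the telmisartan group were member-rich, against 11.9% and 11.2% of kept cells. Whether these levels differ from those of the kept cells was not tested.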

How the results depend on the processing

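Of the alternatives tried, these moved a result; causes were not tested. With 90% of Sample Tag reads needed, the log2 ratio of the 38 genes was 0.10 in macrophage-like, -0.33 in dendritic-like and 0.46 in T-like cells, -0.11 for replication genes and 0.14 for other mitotic genes in macrophage-like cells, with 2 of the 38 higher by at least 0.25, a ratio of 37.9 for the first 19 genes in cells chosen by the last 19, and 9255 CPM in the highest macrophage state. With at least 500 genes per cell the last 2 values were 37.4 and 9099 CPM. With no upper limit on genes the ratios were -0.11 in macrophage-like, -0.025 in dendritic-like and 0.26 in T-like cells, -0.30 for replication and -0.042 for other mitotic genes, with 6 of the 38 lower by at least 0.25, 12.9% member-rich control cells, a ratio of 37.7 in chosen cells and 8629 CPM in the highest state. With a mitochondrial limit of 10% they were 0.067 and -0.11 in macrophage-like and dendritic-like cells, -0.16 for replication and 0.12 for other mitotic genes, 39.8 in chosen cells and 8496 CPM. Without doublet removal they were 0.062, -0.13 and 0.39 in macrophage-like, dendritic-like and T-like cells, -0.16 for replication genes, and 10.999 and 33.6 in cells chosen by the first and last 19. At a resolution of 0.3 the macrophage-like ratio was 0.019, with 1 of the 38 lower by at least 0.25, -0.16 for replication genes, 36.8 in chosen cells and 9250 CPM. That highest state held only 63 cells, against 716 in the main processing, and the next state had 8852 CPM. As UMIs per cell, where the median of all genes lies at -0.45, the ratios were -0.37, -0.40 and -0.56 in macrophage-like, dendritic-like and T-like cells, -0.60 for replication and -0.33 for other mitotic genes, with 36 of the 38 lower by at least 0.25, and *Lmnb1* and *Orc1* turned to -0.13 and -0.13. As a mean over cells of each cell's share of UMIs the ratios were -0.052 and -0.42 in macrophage-like and dendritic-like cells, -0.25 for replication and 0.023 for other mitotic genes, with 5 of the 38 lower by at least 0.25. After thinning to 2000 UMIs they were -0.081 and -0.44, and 0.021 for other mitotic genes, with 5 of the 38 lower and 2 higher by at least 0.25. Without *Hmgb2* the macrophage-like ratio was 0.066. Member-rich shares in control and telmisartan cells were 27.6% and 27.1% with at least 2 genes, 7.78% and 7.77% with at least 8, 8.32% and 7.82% after thinning to 1000 UMIs, and 17.7% and 18.6% after thinning to 4000. The ratio in cells chosen by the first 19 genes was then 11.97 at 1000 and 10.6 at 4000 UMIs, and in those chosen by the last 19 it was 31.2 at 4000. With cell-cycle genes kept the highest state had 9140 CPM. Alternatives chosen after seeing the data gave -0.072 in T-like cells without the state led by macrophage genes, a macrophage-like ratio of 0.013 and 0 of the 38 higher by at least 0.25 without *Ckap2l*, -0.13 in dendritic-like cells and 8323 CPM in the highest state with cell-cycle genes left out of the first clustering, and 2051 CPM in the highest state with the cell-cycle signal removed. Over all genes, the share lower by at least 0.25 ran from 17.7% (no doublet removal) to 24.5% (thinning), and was 77.0% as UMIs per cell. The share higher by at least 0.25 ran from 15.75% (TMM factors) to 19.3% (thinning), and was 3.69% as UMIs per cell. Over the single genes of the 38, 390 of 494 alternative values stayed within the counting interval of the value reported. The sign still turned for 20 of the 38 with no upper limit on genes and for 23 as UMIs per cell. It turned for 13 as a mean over cells, for 12 after thinning, and for at most 8 in any other alternative. Each group is 1 pool of mice, so no value measures variation between mice. T-like and neutrophil-like cells are few, which limits single genes there.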

Other observations

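Some genes were lower in member-rich than in member-free macrophage-like cells, and those named here were chosen after their values were seen. *Inhba*, which codes for an activin subunit, had 117 CPM in member-rich and 589 CPM in member-free cells, and *Slfn4*, a gene of myeloid cells that interferon induces, had 33.9 and 166 CPM. Ratios of member-rich to member-free cells were 0.142 for *Serpinb2*, an inhibitor of plasminogen activators, 0.150 for *Ppbp*, a chemokine precursor, 0.167 for the interferon-induced *Ifit3* and 0.189 for the growth factor *Ereg*. Member-rich and member-free cells differed in depth.

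*Mdm2*, which codes for the ubiquitin ligase of p53 and was also chosen after its value was seen, had a log2 ratio of telmisartan over control of 0.75 in macrophage-like cells.

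The largest set of cells left out was that over the mitochondrial limit, with 2623 control and 4433 telmisartan cells at a median of 1173 and 1143 UMIs. The 38 genes had 983 and 1112 CPM there. Of the 540 and 832 cells deep enough for thinning, 14.3% and 18.6% were member-rich, against 11.9% and 11.2% of kept cells. Cells whose Sample Tag reads were split between tags, 941 within the other limits, had 1584 CPM.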
